A study of Homo sapiens with 11 samples.

Results

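The 40 genes described here encode proteins that drive cells into mitosis, build the spindle, hold chromosomes to it, check their attachment and divide the cell. They were taken as a list of gene symbols, chosen with earlier results of these data known. Every probe set of the array that the platform's annotation assigns to 1 of those symbols and to no other gene was kept. This gave 77 probe sets of 40 genes, out of 54613 probe sets and 19775 named genes on the array. One further probe set carried a member symbol together with another gene and was left out. No member was dropped by a filter, because the deposited values carry no expression level to filter on.

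The RNA came from T47D, a human breast cancer line that carries estrogen and progesterone receptors, and was measured on 11 Affymetrix arrays in 9 groups. Every culture first spent 4 h in 10% serum stripped of steroids by charcoal and was then incubated for 3 h in the same serum. Cells with no addition (control) and cells given E2-BSA at 1 µM, in which the steroid is linked to albumin, had 2 arrays each. The other 7 groups had 1 array each: estradiol at 1 µM, ethanol at 0.1%, the carrier BSA at 1 µM, ICI at 10 µM, G15 at 10 µM, and E2-BSA combined with either antagonist. Ethanol is the usual solvent of estradiol, but the labels do not say whether the estradiol culture held any. The labels name ICI and G15 as antagonists, and G15 is known as a blocker of the G protein-coupled estrogen receptor. Nothing in the labels says that the repeated arrays came from separate cultures, so p-values measure only the spread between these arrays, which may be technical. The groups with 1 array were assumed to vary like the 2 replicated groups.

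The arrays fell into 2 sets by their own control probe sets, a smaller one of 3 (control 1, E2-BSA 1 and estradiol) and a larger one of 8. The labels do not name these sets. Over all probe sets, 2 arrays of the smaller set correlated at 0.824 to 0.864, 2 of the larger set at 0.160 to 0.466, and arrays of different sets at -0.584 to -0.330. The difference between the 5′ and 3′ control probe sets for ACTB, a measure of RNA and labelling quality, was 0.65 to 0.79 on the log2 scale in the smaller set and -0.37 to 0.00 in the larger. The array set was therefore a term of the fit for each comparison below, unless stated otherwise. All but estradiol against ethanol compare groups that share an array set. Each value is a centred log2 value, where 0 is the baseline that the authors' processing left for that probe set. Values of 1 probe set can be compared between arrays of the same set, but levels cannot be compared between genes. For the same reason the T47D identity of the RNA could not be read from marker levels. None of the 24 probe sets of luminal breast epithelium, 10 of basal or myoepithelial cells, 23 of fibroblasts and 8 of blood cells passed the test in any comparison described here.

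Transcripts of mitotic genes are made late in the cell cycle and decline after division, so their abundance in a culture follows the share of cells preparing for or passing through mitosis. Many of their promoters carry a short element called the cell cycle homology region, through which the MuvB protein complex represses them in resting and early cycle cells and, joined by B-MYB and FOXM1, activates them later. CCAAT boxes bound by NF-Y are a common companion of that element. In estrogen receptor positive breast cancer cells, mitogens and their withdrawal are known to move this gene group as a block.

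Promoter sequences were taken from RefSeq (build GRCh38.p14) as windows from 250 bases before to 50 bases after the transcription start, and 35 of the 40 genes matched, 6 of them with more than 1 window. UBE2C, AURKA, TTK, BIRC5 and TPX2 were not among them. The 7 windows printed here belong to 6 genes that fell in the ethanol array, the comparison the results turn on, and to CCNB2, a gene of the same class that did not pass the test there. All are written 5′ to 3′ along the gene, and capitals mark every match, on either strand, to the cell cycle homology region (TTTGAA or TTCGAA), to a CCAAT box (CCAAT) or to an E2F-type site (TTTGGCGC or TTTCGCGC).
PLK1 promoter, chr16:23678639-23678938, plus strand: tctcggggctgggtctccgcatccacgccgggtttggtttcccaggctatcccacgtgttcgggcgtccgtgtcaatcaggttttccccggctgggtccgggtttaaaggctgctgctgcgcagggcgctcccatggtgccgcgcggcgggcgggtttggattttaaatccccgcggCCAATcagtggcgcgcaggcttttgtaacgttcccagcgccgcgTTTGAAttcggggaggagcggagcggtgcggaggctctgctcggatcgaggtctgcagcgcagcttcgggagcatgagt
PSRC1 promoter, chr1:109283096-109283395, minus strand: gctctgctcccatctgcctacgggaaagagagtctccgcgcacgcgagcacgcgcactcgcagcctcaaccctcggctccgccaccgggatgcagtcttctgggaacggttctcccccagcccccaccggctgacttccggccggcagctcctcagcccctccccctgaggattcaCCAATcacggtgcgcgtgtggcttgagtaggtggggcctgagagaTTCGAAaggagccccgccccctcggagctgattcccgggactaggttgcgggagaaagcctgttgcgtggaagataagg
PIF1 promoter, chr15:64825598-64825897, minus strand: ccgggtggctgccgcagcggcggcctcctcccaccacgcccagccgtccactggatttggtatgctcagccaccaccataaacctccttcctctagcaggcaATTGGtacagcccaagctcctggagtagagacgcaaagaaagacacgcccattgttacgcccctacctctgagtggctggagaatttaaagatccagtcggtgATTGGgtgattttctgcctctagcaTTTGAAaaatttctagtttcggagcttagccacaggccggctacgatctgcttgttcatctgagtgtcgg
CENPA promoter, chr2:26785806-26786105, plus strand: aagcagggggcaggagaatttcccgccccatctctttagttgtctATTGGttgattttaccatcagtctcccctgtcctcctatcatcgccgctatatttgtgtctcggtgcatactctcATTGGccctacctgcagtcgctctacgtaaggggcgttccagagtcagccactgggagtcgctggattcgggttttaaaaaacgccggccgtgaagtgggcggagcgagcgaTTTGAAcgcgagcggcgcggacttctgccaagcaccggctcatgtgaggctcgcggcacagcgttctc
KIF14 promoter, chr1:200620702-200621001, minus strand: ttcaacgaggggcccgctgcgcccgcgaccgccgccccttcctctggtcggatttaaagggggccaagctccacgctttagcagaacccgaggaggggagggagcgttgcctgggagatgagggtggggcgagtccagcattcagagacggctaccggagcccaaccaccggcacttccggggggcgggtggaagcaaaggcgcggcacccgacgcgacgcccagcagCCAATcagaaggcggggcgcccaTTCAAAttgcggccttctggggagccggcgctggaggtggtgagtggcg
KIF20A promoter, chr5:138178862-138179161, plus strand: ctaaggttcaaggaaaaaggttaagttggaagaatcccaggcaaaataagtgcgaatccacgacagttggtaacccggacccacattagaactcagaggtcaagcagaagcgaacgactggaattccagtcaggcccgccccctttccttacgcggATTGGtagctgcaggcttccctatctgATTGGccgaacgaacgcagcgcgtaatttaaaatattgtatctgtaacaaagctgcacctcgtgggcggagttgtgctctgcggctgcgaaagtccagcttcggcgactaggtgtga
CCNB2 promoter, chr15:59104896-59105195, plus strand: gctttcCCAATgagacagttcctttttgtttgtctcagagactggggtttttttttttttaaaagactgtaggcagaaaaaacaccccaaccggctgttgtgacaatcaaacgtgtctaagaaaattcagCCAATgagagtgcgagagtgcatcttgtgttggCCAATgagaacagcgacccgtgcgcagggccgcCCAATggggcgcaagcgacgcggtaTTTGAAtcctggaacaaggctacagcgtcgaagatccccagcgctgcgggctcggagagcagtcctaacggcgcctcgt

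In these windows PLK1 and CCNB2 had TTTGAA at positions -29 to -24, counted from the transcription start, and PSRC1 had TTCGAA at the same positions. PIF1 had TTTGAA at positions -20 to -15 and CENPA at -18 to -13. KIF14 had it on the opposite strand, at 2 to 7 after the start. The KIF20A window held 2 CCAAT boxes and neither spelling of the cell cycle homology region. CCNB2, whose probe sets did not pass in ethanol, carried 4 CCAAT boxes besides its TTTGAA, so these letters alone did not separate the genes that fell from the one that did not.

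Over all members with a window, 24 of 35 genes (68.6%) held TTTGAA, against 18.2% of the 27305 genes of the promoter table. Among other mitosis genes, a separate list of genes acting in mitosis, the share was 63.0% (34 of 54), and among DNA replication genes 3.12% (1 of 32). Adding the spelling TTCGAA brought the members to 77.1% and all genes to 19.5%. In 23 members 1 of these elements lay between 40 bases before and 50 bases after the start, a position that was not counted over all genes. Among the genes that fell in ethanol, TOP2A, ASPM and KIF23 had such elements only further upstream, and AURKB and KIF20A had none. CCAAT was found in 82.9% of members and 39.7% of all genes, and 51.4% of members had 2 or more copies in a window, against 12.9% of all genes. The E2F-type letters were found in 5.71% of members, 31.2% of DNA replication genes and 1.4% of all genes. A gene was counted if any of its windows held the match. TTCGAA reads the same on both strands and was counted once, no motif contains another, and a match describes the letters only.

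Across the 8 arrays of the larger set, the ethanol array stood apart from the other 7 for these genes. Its median over the 77 probe sets was -0.44, while the medians of the other 7 arrays lay between -0.10 (E2-BSA 2) and 0.01 (BSA). Ethanol was the lowest of the 8 arrays in 63 of the 77 member probe sets, against 15.7% of all probe sets on the array. By the mean over each gene's probe sets it was lowest for 37 of the 40 genes, a share that was not counted over all genes. The exceptions were MAD2L1, lowest with ICI, ANLN, lowest with E2-BSA and G15, and ECT2, lowest with G15.

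**Figure D1:**
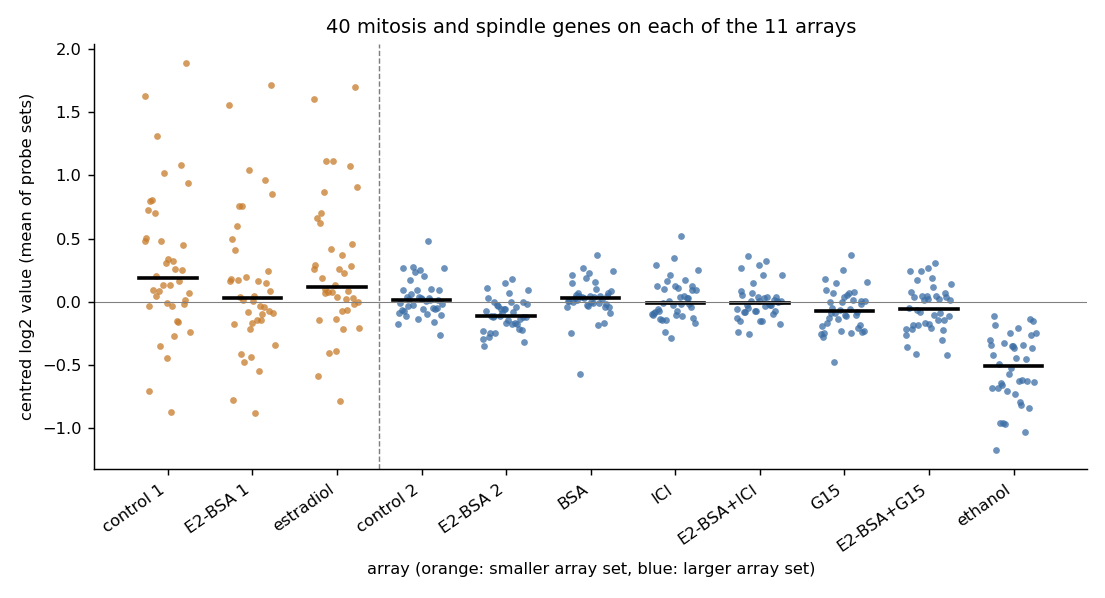
Centred log2 value of each of the 40 genes (points, mean over the gene's probe sets) on each of the 11 arrays, with the median over genes as a bar, and the smaller array set in orange and the larger in blue. The ethanol points lie mostly below those of the other 7 arrays of the larger set, where it was the lowest array for 37 of 40 genes, and the 3 arrays of the smaller set spread more widely.

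Ethanol against control compares 1 ethanol array with the control arrays. An effect of ethanol therefore cannot be told apart from a difference of that culture or array. In limma with Benjamini-Hochberg adjustment over all probe sets, 13 probe sets of 11 members fell and none rose at an adjusted p under 0.05, against 0.0604% of all probe sets called lower (33 in all) and 0.227% called higher (124), 0.287% together. The 11 genes were PIF1, TOP2A, ASPM, PSRC1, KIF14, KIF23, PLK1, KIF20A, AURKB, CENPA and AURKA. The fitted difference was below 0 in 72 of the 77 member probe sets, with a median of -0.49 on the log2 scale, against 51.1% below 0 and a median of -0.00 over all probe sets. By gene mean, all 40 members were below 0, with a median of -0.58, a share that was not counted over all genes. At an unadjusted p under 0.05, 52 member probe sets were lower and none higher, against 3.17% of all probe sets lower and 7.16% in either direction. Less of these transcripts in bulk RNA can mean fewer cells in mitosis or less RNA per cell, and the 2 cannot be told apart here.

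PLK1, the kinase that drives mitotic entry, centrosome maturation and cytokinesis, has 1 probe set. On the larger set it read 0.27 in control 2, -0.03 in E2-BSA 2, 0.26 with BSA, 0.17 with ICI, 0.15 with G15, 0.07 with E2-BSA and ICI, 0.24 with E2-BSA and G15, and -0.96 with ethanol. On the smaller set it read -0.35 in control 1, -0.47 in E2-BSA 1 and -0.40 with estradiol. The ethanol array lay below every other array of the larger set. The fitted difference from control was -1.19 ± 0.16 (SE), or 2.29-fold lower, with a limma adjusted p of 0.00649.

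AURKA, the centrosomal kinase that activates PLK1, fell at 1 of its 3 probe sets. Probe set 208079_s_at read -0.74 with ethanol and between -0.05 and 0.12 on the other 7 arrays of the larger set, a difference from control of -0.87 ± 0.16 (SE) with a limma adjusted p of 0.0430. The other AURKA probe sets, at -0.71 and -0.38, did not pass. AURKB, the kinase of the chromosomal passenger complex, fell at 239219_at by 0.97 on the log2 scale (SE 0.16, limma adjusted p 0.0226), from between -0.07 and 0.34 on the other 7 arrays to -0.81. Its second probe set, 209464_at, differed by -0.27 and did not pass.

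Among the other entry genes none passed. CCNB1, the cyclin that activates CDK1 at mitotic entry, lay just outside the threshold at 228729_at, with -0.85 ± 0.16 (SE) and a limma adjusted p of 0.0592, and AURKA 208079_s_at lay just inside it. CCNA2, the cyclin of S phase and early mitosis, differed by -0.53 and -0.56 at its 2 probe sets. The phosphatases CDC25B and CDC25C, which remove inhibitory phosphates from CDK1, differed by -0.36 and by -0.54 to -0.17. CDK1 itself differed by between -0.39 and 0.02 over 4 probe sets, and CCNB2 by between -0.34 and -0.01 over 3. NEK2, a kinase of centrosome separation, gave -0.46 and -0.15.

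The kinesins, motor proteins that move along or reshape microtubules, included 3 members that fell. KIF14, which acts in cytokinesis, fell at both of its probe sets. Probe set 206364_at read -1.28 with ethanol and between -0.35 and 0.06 on the other 7 arrays of the larger set, and differed from control by -1.23 ± 0.16 (SE; limma adjusted p 0.00447). At 236641_at the difference was -1.06 ± 0.17 (SE; limma adjusted p 0.0179). KIF20A, a motor of the central spindle, read -1.03 with ethanol and between -0.17 and 0.03 on the other 7 arrays, with no overlap, and fell by 0.999 on the log2 scale (limma adjusted p 0.0186). KIF23, a subunit of the centralspindlin complex, fell at 244427_at (-1.22 ± 0.18 SE, limma adjusted p 0.0115), where control 2, at 0.67, was the highest of the 8 arrays. Its other probe set differed by -0.63 and did not pass. KIF11, which pushes spindle poles apart, KIF2C, a microtubule depolymerase, and KIF4A, a chromosome-bound motor, gave -0.42, -0.50 and -0.49, and -0.24, and did not pass.

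**Figure D2:**
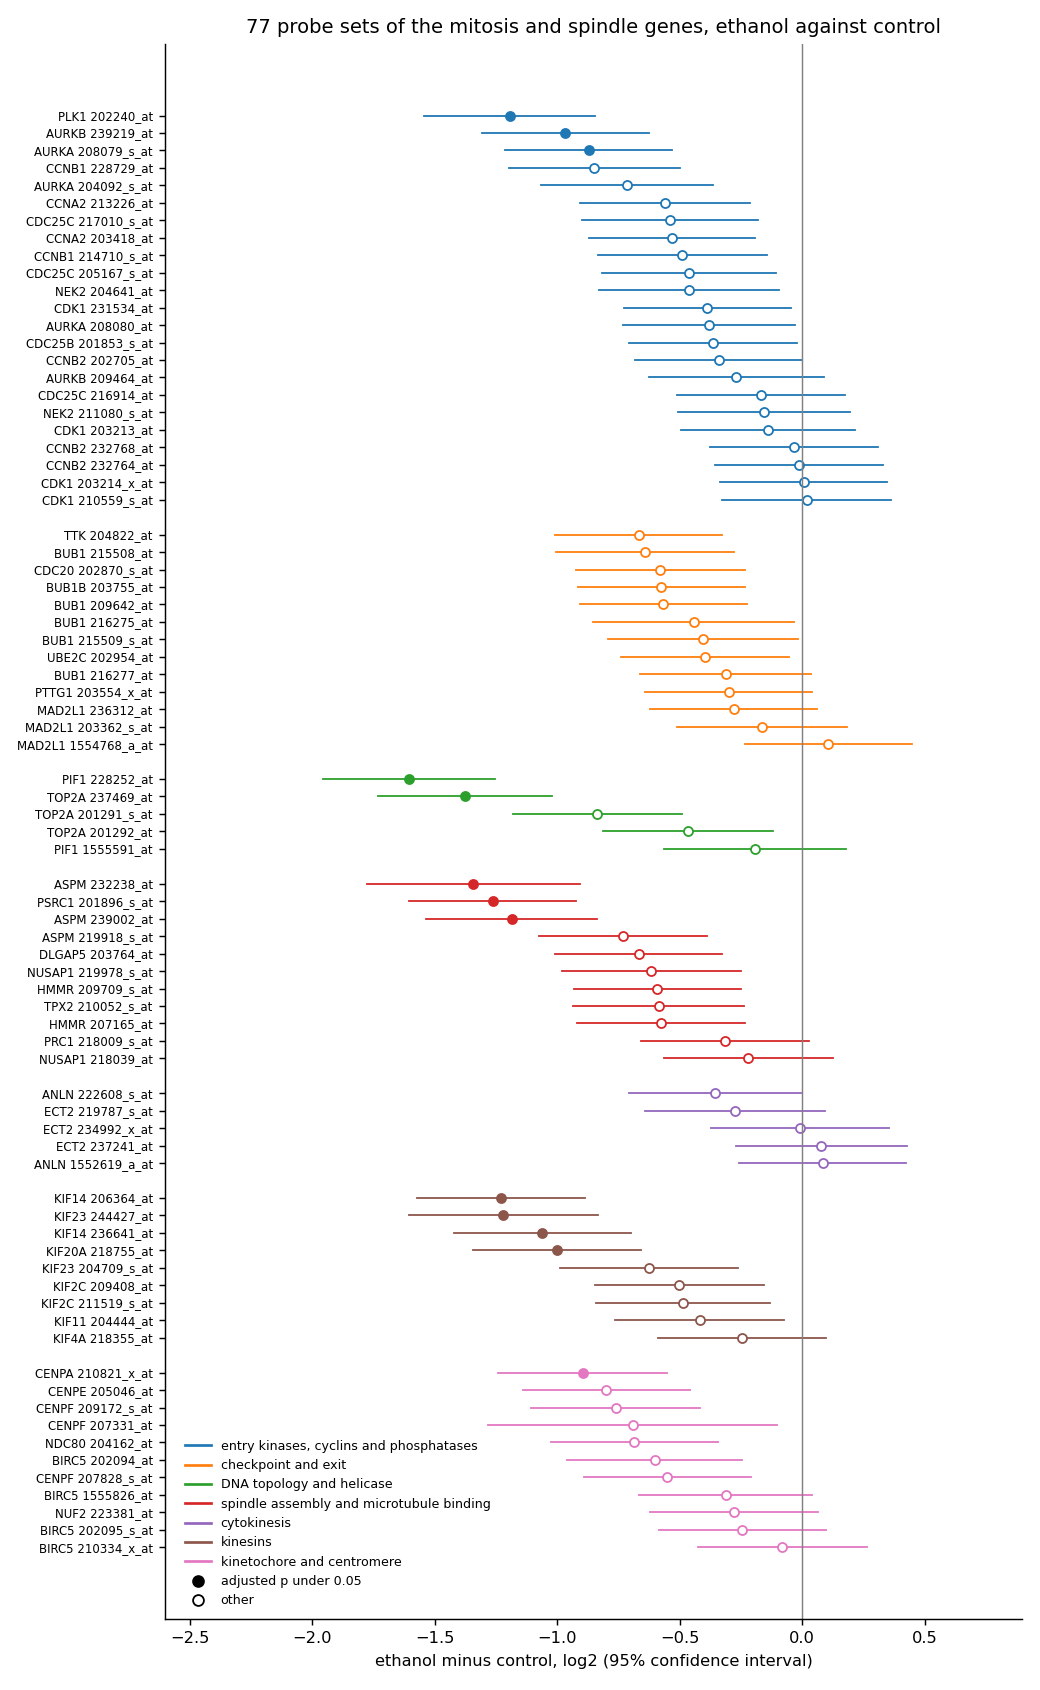
Fitted difference of ethanol from control (log2, with its 95% confidence interval) for each of the 77 probe sets, grouped by the role of the gene, with filled points for those at an adjusted p under 0.05. The 13 filled points all lie at -0.87 or lower, and 72 of the 77 points lie below 0.

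At the kinetochore, the structure that ties chromosomes to microtubules, only CENPA, the histone variant that marks centromeres, passed. It read -0.96 with ethanol and -0.41 to 0.02 on the other 7 arrays of the larger set, and differed by -0.90 ± 0.16 (SE; limma adjusted p 0.0385). CENPE, a kinetochore motor, differed by -0.80 (limma adjusted p 0.0718), and CENPF, a large kinetochore protein, by -0.76 to -0.55 over 3 probe sets. NDC80 and NUF2, partners in the complex that grips microtubules, differed by -0.68 and -0.28. BIRC5 (survivin), a passenger complex subunit, ranged from -0.60 to -0.08 over 4 probe sets. None of these 5 genes passed the test.

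Of the spindle assembly and microtubule binding genes, PSRC1 and ASPM fell. PSRC1, a microtubule-binding spindle protein, read 0.48 in control 2, 0.18 in E2-BSA 2, 0.37 with BSA and 0.52 with ICI. It read 0.37 with G15, 0.32 with E2-BSA and ICI, 0.31 with E2-BSA and G15, and -0.79 with ethanol. On the smaller set it read -0.27 in control 1, -0.55 in E2-BSA 1 and -0.22 with estradiol. Ethanol was again the lowest array of the larger set, and the difference was -1.26 ± 0.16 (SE; 2.40-fold lower, limma adjusted p 0.00337). ASPM, which focuses spindle poles, fell at 239002_at (-1.19 ± 0.16 SE, limma adjusted p 0.00691) and at 232238_at (-1.34 ± 0.20 SE, limma adjusted p 0.0133), but these probe sets were also low on other arrays, as described below for BSA. TPX2, an activator of AURKA on the spindle, DLGAP5, HMMR, NUSAP1 and PRC1, a microtubule crosslinker of the central spindle, gave values between -0.67 and -0.22 and did not pass.

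PIF1, a DNA helicase, gave the lowest difference of any member. Probe set 228252_at read 0.40 in control 2, 0.13 in E2-BSA 2, 0.26 with BSA, 0.29 with ICI, 0.12 with G15, 0.50 with E2-BSA and ICI, 0.36 with E2-BSA and G15, and -1.16 with ethanol. On the smaller set it read -0.22 in control 1, -0.69 in E2-BSA 1 and -0.12 with estradiol. The ethanol value lay below all others of the larger set, and the fitted difference was -1.60 ± 0.16 (SE; 3.04-fold lower, limma adjusted p 0.000528). The second PIF1 probe set differed by -0.19 and did not pass. TOP2A, the topoisomerase that untangles sister chromatids, fell at 237469_at (-1.38 ± 0.16 SE, limma adjusted p 0.00259). Its other probe sets gave -0.84 (limma adjusted p 0.0605) and -0.47.

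No gene of the spindle checkpoint or of mitotic exit passed. TTK (MPS1), the kinase at the head of the checkpoint, differed by -0.67 (limma adjusted p 0.174), BUB1 by -0.64 to -0.31 over 5 probe sets, BUB1B by -0.58 and MAD2L1 by -0.28 to 0.11 over 3. CDC20, the activator of the anaphase-promoting complex, differed by -0.58 and UBE2C, its ubiquitin-conjugating enzyme, by -0.40. PTTG1 (securin), whose destruction releases sister chromatids, differed by -0.30. In the cytokinesis group, ANLN, a scaffold of the contractile ring, and ECT2, which activates RhoA there, had gene means of -0.135 and -0.068. ECT2 lay nearest to 0 of all members, while MAD2L1 (-0.112), CDK1 (-0.125) and CCNB2 (-0.129) lay nearer to 0 than ANLN. KIF14, which also acts in cytokinesis, was grouped with the kinesins and had a gene mean of -1.15. The median over gene means was -0.90 for the 2 genes of DNA topology and helicase, -0.71 for kinesins, -0.68 for kinetochore genes, -0.59 for spindle assembly, -0.47 for checkpoint and exit, -0.47 for entry genes and -0.10 for the 2 cytokinesis genes. The order of these roles was not tested.

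**Figure D3:**
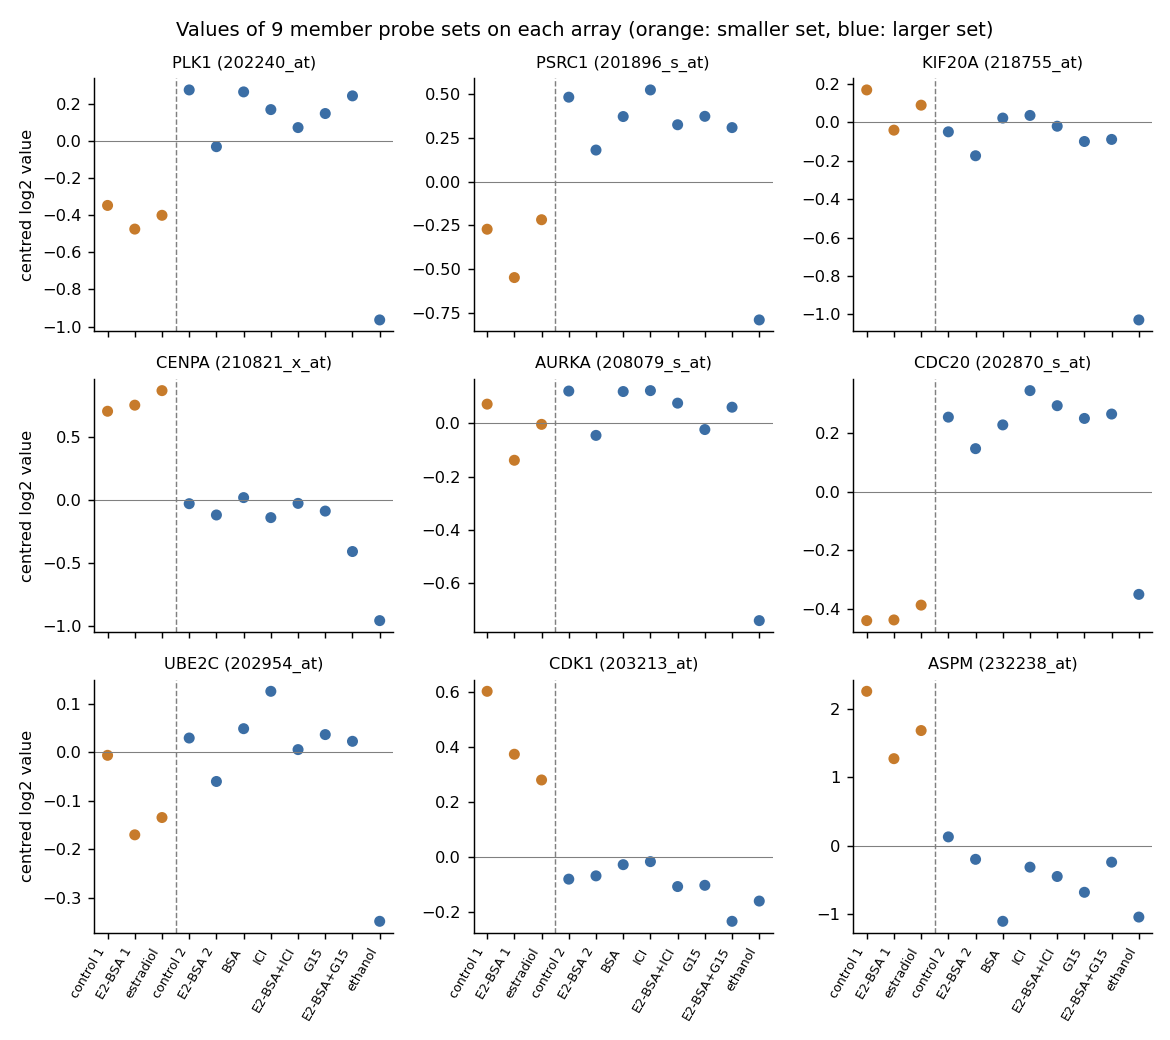
Centred log2 values of 9 member probe sets on each of the 11 arrays (orange, smaller set; blue, larger set), each panel with its own scale. Within the larger set, PLK1, PSRC1, KIF20A, CENPA and AURKA are lowest with ethanol. There CDK1 203213_at is lowest with E2-BSA and G15 (-0.23, against -0.16 with ethanol), and ASPM 232238_at is as low with BSA (-1.11) as with ethanol (-1.05).

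Ethanol was also set against every other array of its set in turn. All 7 differences share the 1 ethanol array, so they are not independent. Taken as plain differences within the larger set, with no test, ethanol was lower than each of the other 7 arrays in 70 to 74 of the 77 member probe sets, with medians from -0.52 (against control 2) to -0.35 (against E2-BSA 2). The median over all probe sets lay between -0.02 and -0.01 in these 7 differences. Differences of 1 or more below 0 were seen for 2 to 9 member probe sets, out of 10 to 69 on the whole array. The ACTB difference between 5′ and 3′ probe sets was -0.37 in control 2 and 0.00 in ethanol, so it moved with the comparison to control. Against the ICI array, whose ACTB value was -0.02, the member median was -0.51. The part of RNA quality in the ethanol result was not tested.

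Other genes of the cell cycle gave the following in the same comparison. Of 119 probe sets of other mitosis genes, 98 were below 0 with a median of -0.27, and 10 probe sets of 7 genes fell, among them GTSE1 (-1.17 at its lowest probe set), CDCA2 (-1.14), SGO2 (-1.08) and FAM83D (-1.04). Thus 23 of the 33 probe sets called lower on the whole array, 13 and 10, belonged to the 2 mitosis lists. A further 4 carried a single symbol, TNFAIP8L1, MKI67, TCF4 and KNSTRN, which were named after their values were seen, and 6 had no single symbol. MKI67 encodes the Ki-67 proliferation antigen and KNSTRN a kinetochore and spindle protein. Both mitosis lists were chosen with earlier results of these data known, so their share of the calls is no independent support. The DNA replication genes lay on the other side, with 60 of 70 probe sets above 0, a median of 0.21 and 1 that rose, DTL (1.03 ± 0.17 SE, limma adjusted p 0.0221), a substrate receptor of the ubiquitin ligase that clears CDT1. Of 34 probe sets of cell cycle entry genes, CDKN1A (p21), an inhibitor of cyclin-dependent kinases, rose by 1.05 (SE 0.16, limma adjusted p 0.0133) and E2F2 by 0.88 at 1 of 3 probe sets (limma adjusted p 0.0424). CDKN1A read 1.04 with ethanol and -0.06 to 0.23 on the other 7 arrays of the larger set. Against control, the DNA replication list also lay mostly above 0 in other comparisons. With E2-BSA 56 of 70 probe sets did (median 0.08), with estradiol 53 (median 0.11) and with BSA 48 (median 0.03). With ICI 39 did (median 0.01) and with G15 37 (median 0.00).

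**Figure D4:**
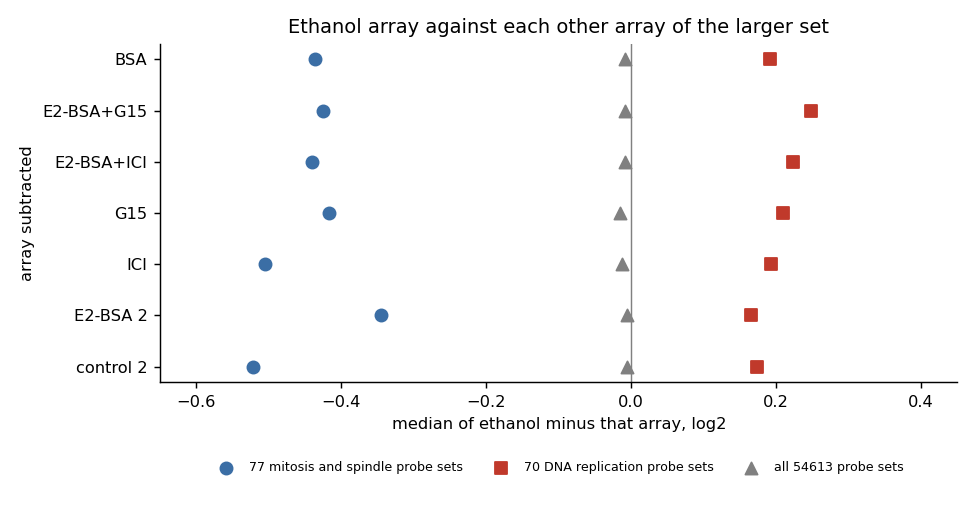
Median difference (log2) of the ethanol array from each of the other 7 arrays of the larger set, for the 77 member probe sets (circles), 70 DNA replication probe sets (squares) and all 54613 probe sets (triangles). The members lie between -0.52 and -0.35 and the replication genes between 0.17 and 0.25. The 7 differences share the ethanol array and are not independent.

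The fit behind these calls has 1 residual degree of freedom and leans on a prior worth 11.3, so the number of calls is less sure than the differences. A reduced model chosen after seeing the data, in which ethanol was set against the other 10 arrays with array set and the presence of E2-BSA or estradiol as the only other terms, called 26 probe sets of 22 members lower, against 0.123% of all probe sets, with a member median of -0.47, and called ASPM 232238_at, ASPM 239002_at, TOP2A 237469_at and KIF23 244427_at no longer. There 9 probe sets of 8 members were called in both fits. Quantile normalization left PIF1 alone among the members, with 11 probe sets higher and 1 lower over the whole array in place of 124 and 33, and with no replicate block none passed, while 417 probe sets of the whole array had an unadjusted p under 0.05.

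BSA against control compares 1 array given the carrier protein with the control arrays, so the carrier cannot be told apart from that culture or array. Only ASPM fell among the members, at 1 of its 3 probe sets, and no member rose. Over the whole array 0.0494% of probe sets (27) were called lower and none higher in limma. The members' median difference was 0.02, with 31 of 77 below 0, against a median of 0.01 and 47.5% below 0 over all probe sets. At an unadjusted p under 0.05, 5 member probe sets were lower and 1 higher, against 4.95% of all probe sets.

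ASPM 232238_at read 0.13 in control 2, -0.20 in E2-BSA 2, -1.11 with BSA, -0.32 with ICI, -0.69 with G15, -0.45 with E2-BSA and ICI, -0.24 with E2-BSA and G15, and -1.05 with ethanol. On the smaller set it read 2.27 in control 1, 1.28 in E2-BSA 1 and 1.69 with estradiol, so all 3 lay above the larger set. The difference of BSA from control was -1.40 ± 0.20 (SE; limma adjusted p 0.0330). ASPM 239002_at, at -0.77, did not pass, and ASPM 219918_s_at read 0.01 with BSA and -0.05 in control 2. The 3 probe sets of the gene thus differed, and the gene mean, -0.70, did not pass.

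Transcripts that are long or held in the nucleus were looked at in the same comparison. Of 77 such probe sets from 16 genes, a list written with earlier results of these data known, 5 fell with BSA, among them NASP (-1.76 at 242918_at), TPR (-1.64), DHX9 (-1.58) and MALAT1 (-1.41), and the list's median was -0.17. A probe set of CDCA2, 236957_at, fell by 1.20 with BSA. On the BSA array the ACTB 5′ to 3′ difference was -0.26 and in control 2 it was -0.37, the lowest values of the 11 arrays. The part of RNA quality in the ASPM result was not tested. In the ethanol comparison the same list had a median of -0.07 and no call in limma, with ASPM 232238_at and CDCA2 236957_at low on both arrays.

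ICI alone and G15 alone, at 10 µM each, called no member and no probe set of the array in limma (0.0% for each). With ICI the members' median was -0.01, 40 of 77 lay below 0 (47.1% of all probe sets did), and 4 were lower and 2 higher at an unadjusted p under 0.05, against 5.95% of all probe sets. The lowest gene means were ASPM at -0.36, KIF23 at -0.21, TOP2A at -0.19, CENPF at -0.17 and KIF11 at -0.16, and the highest NEK2 at 0.17, CCNB2 at 0.12, CDC25C at 0.12, CDC20 at 0.12 and ANLN at 0.10. With G15 the median was -0.08, 62 of 77 lay below 0 (45.9% of all probe sets did), and 6 were lower and 1 higher at an unadjusted p under 0.05, against 4.84% of all probe sets. The lowest gene means with G15 were ASPM at -0.60, KIF23 at -0.36, TOP2A at -0.33, TTK at -0.26 and NUSAP1 at -0.24. The long or nuclear transcripts were lower too, with a median of -0.10 and 57 of 77 below 0 with ICI, and a median of -0.16 and 61 of 77 below 0 with G15. Of them, 22 with G15 and 13 with ICI were lower at an unadjusted p under 0.05. Whether the members' values move with RNA quality in these and the following comparisons was not tested. The ethanol, BSA, ICI, G15 and E2-BSA comparisons share the same control arrays, so values that are low in several of them are not independent.

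E2-BSA against control is the study's central comparison, with 2 arrays on each side. None of the 77 member probe sets passed in limma, where 0.657% of all probe sets did (208 higher and 151 lower). The members' median difference was -0.12, with 64 of 77 below 0, against a median of 0.00 and 49.2% below 0 over all probe sets. At an unadjusted p under 0.05, 12 members' probe sets were lower and none higher, against 5.12% of all probe sets lower and 9.68% in either direction. All 9 kinesin probe sets and all 11 of spindle assembly lay below 0, with medians of -0.17 and -0.13. Other mitosis genes had 91 of 119 probe sets below 0, with a median of -0.09, and DNA replication genes 56 of 70 above 0. The long or nuclear transcripts lay on the same side as the members, with a median of -0.13 and 58 of 77 below 0. Of them, 15 were lower at an unadjusted p under 0.05 in limma and 1 was called lower.

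The lowest gene means were ASPM at -0.43 ± 0.10 (SE), TTK at -0.33 ± 0.09, PIF1 at -0.32 ± 0.10, KIF23 at -0.31 ± 0.09 and CENPF at -0.31 ± 0.12, and none passed (limma adjusted p from 0.211 to 0.492). MAD2L1, at 0.04, was the only member whose gene mean lay above 0. The nearest to 0 below it were BIRC5 at -0.01, CENPA at -0.02, BUB1 at -0.03 and PRC1 at -0.03. For ASPM 232238_at the difference was -0.66 ± 0.15 (SE; limma adjusted p 0.0884), with a 95% confidence interval from -0.99 to -0.33.

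Each of the 2 array sets holds a control and an E2-BSA array, which allows a check within set. In the smaller set 56 of 77 member probe sets were lower with E2-BSA, with a median of -0.14, and in the larger set 65 were, with a median of -0.11. Over both, 48 were lower in each pair, 4 higher in each, and 25 went opposite ways. Of all probe sets, 27.2% were lower in both pairs. TTK gave -0.32 and -0.34 in the 2 pairs and PSRC1 -0.28 and -0.30, so these pairs lay close together. TOP2A 237469_at gave -0.54 and -0.29.

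Against the carrier, E2-BSA called no member in limma, where 0.152% of all probe sets passed. The members' median was -0.14, with 66 of 77 below 0, while the long or nuclear transcripts had a median of 0.09 with 28 of 77 below 0. Of the members, 3 were lower and 3 higher at an unadjusted p under 0.05, against 6.47% of all probe sets. TTK (-0.35), NUF2 (-0.32), KIF14 (-0.32), ANLN (-0.31) and CCNA2 (-0.30) had the lowest gene means. ASPM had the highest, 0.27, and its probe set 232238_at stood at 0.75 (limma adjusted p 0.317), from -0.20 in E2-BSA 2 and -1.11 with BSA.

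**Figure D5:**
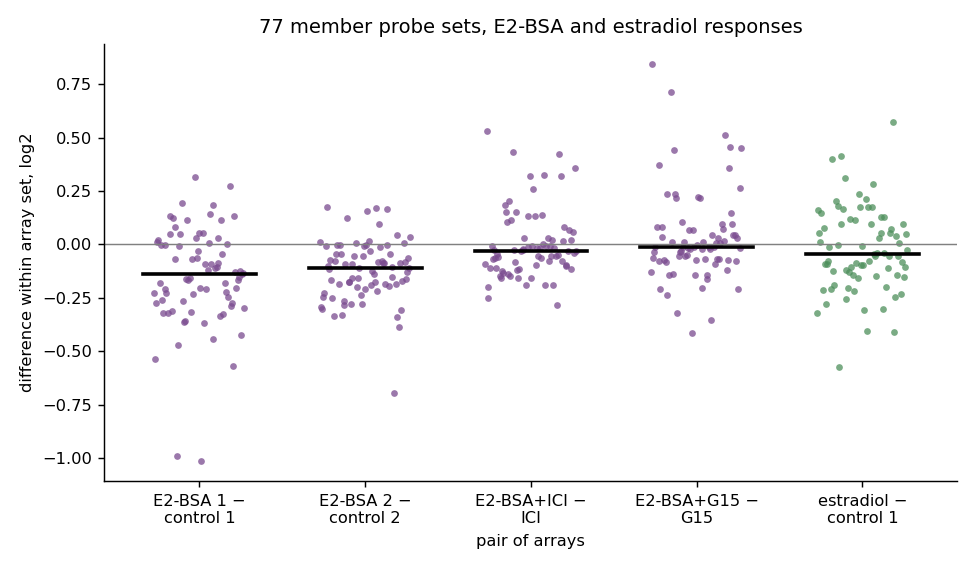
Difference (log2) of the treated from the baseline array within an array set, for the 77 member probe sets (points) and their median (bar), in 4 pairs that differ by E2-BSA and in the pair of estradiol and control 1. The medians lie between -0.14 and -0.01, and most points lie within 0.5 of 0.

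With an antagonist present, the E2-BSA differences were nearer to 0. In the larger set the array medians over the member probe sets were -0.02 in control 2 and -0.10 in E2-BSA 2. They were -0.02 with ICI and -0.03 with E2-BSA and ICI, and -0.09 with G15 and -0.08 with E2-BSA and G15. The G15 array thus read nearly as low without E2-BSA as E2-BSA 2 did. With ICI, 51 of 77 member probe sets were lower with E2-BSA, against 52.0% of all probe sets, with a member median of -0.03. With G15, 42 of 77 were lower, against 51.8% of all probe sets, with a member median of -0.01. No member passed in either, where 0.0% and 0.112% of all probe sets did. At an unadjusted p under 0.05, 3 members' probe sets were higher with ICI and 5 with G15, and none was lower, against 7.14% and 7.43% of all probe sets. The change of the response itself had a median of 0.10 with ICI and 0.12 with G15 over the members. Over the long or nuclear transcripts it was larger, with a median of 0.19 and 65 of 77 above 0 with ICI, and a median of 0.30 and 63 of 77 above 0 with G15. No member passed (0.011% and 0.0% of all probe sets in limma), and at an unadjusted p under 0.05 there were 7 members' probe sets with ICI and 9 with G15, against 7.58% and 8.01% of all probe sets. The largest change was at TOP2A 237469_at, 0.94 ± 0.21 (SE) with ICI and 1.26 ± 0.21 with G15 (limma adjusted p 0.133 and 0.148). Probe set 237469_at read 0.14 in control 2 and -0.16 in E2-BSA 2. It was low with ICI alone (-0.32) and G15 alone (-0.31), and read 0.21 with E2-BSA and ICI and 0.54 with E2-BSA and G15. At the other TOP2A probe sets the change was smaller, 0.04 with ICI and 0.02 with G15 at 201292_at, and 0.06 and 0.21 at 201291_s_at.

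Averaged over the 3 backgrounds of no antagonist, ICI and G15, the E2-BSA difference had a median of -0.08 over the members, with 62 of 77 below 0, and none passed in limma (0.244% of all probe sets did). At an unadjusted p under 0.05, against 8.45% of all probe sets, 3 were lower and none higher: TTK at -0.22 ± 0.08 (SE, adjusted p 0.463), PSRC1 at -0.21 ± 0.07 (adjusted p 0.475) and ANLN 222608_s_at at -0.18 ± 0.07 (adjusted p 0.568). Across the 4 pairs, 19 member probe sets (24.7%) were lower with E2-BSA every time, against 8.42% of all probe sets, and 1 was higher every time, against 8.22%. TTK gave -0.32, -0.34, -0.15 and -0.08 in the smaller set, the larger set, with ICI and with G15. PSRC1 gave -0.28, -0.30, -0.20 and -0.06 in the same order, and CCNB1 228729_at gave -0.36, -0.18, -0.08 and -0.03. The first 2 pairs had the larger differences for these 3 genes. UBE2C, PTTG1, KIF11, DLGAP5, HMMR and NUF2 were among the 19 as well.

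Estradiol, 1 array, called no member against control in limma, where 0.167% of all probe sets passed (82 higher and 9 lower). The members' median was -0.04, with 43 of 77 below 0, and 1 was higher at an unadjusted p under 0.05, BUB1 215509_s_at, against 9.2% of all probe sets. The lowest gene means were KIF11 at -0.26, TTK at -0.21, NUF2 at -0.19, ANLN at -0.16 and ASPM at -0.14, and the highest TPX2, CENPA and DLGAP5 at 0.13, MAD2L1 at 0.10 and CDC25B at 0.09.

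Estradiol and E2-BSA were applied at the same 1 µM and for the same 3 h, and differ by name in the albumin to which the steroid is coupled. No member separated them in limma, and neither did any probe set of the array (0.0%). The members' median was 0.12 in favour of estradiol, with 62 of 77 above 0, and 6 were higher and none lower at an unadjusted p under 0.05, against 8.5% of all probe sets. The long or nuclear transcripts lay further to the same side, with a median of 0.17, 66 of 77 above 0 and 20 higher at an unadjusted p under 0.05. TOP2A 237469_at differed most, by 0.63 with a 95% confidence interval from 0.28 to 0.99 (limma adjusted p 0.335), followed by ASPM 239002_at at 0.56 (0.21 to 0.91). PLK1 read -0.40 with estradiol and -0.47 in E2-BSA 1, and PSRC1 read -0.22 and -0.55. The wide intervals do not show that the compounds act alike on these genes.

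Ethanol is the other baseline for estradiol. Against it, a contrast added after seeing the data that has to cross the 2 array sets, the members' median was 0.50, with 71 of 77 above 0. In limma 4 members rose, PIF1 (1.75 ± 0.21 SE, adjusted p 0.00435), TOP2A (1.60 ± 0.21, adjusted p 0.00861), PSRC1 (1.31 ± 0.21, adjusted p 0.0272) and ASPM (1.27 ± 0.21, adjusted p 0.0381), against 0.0604% of all probe sets called higher and 0.163% in either direction. At an unadjusted p under 0.05, 42 members' probe sets were higher and none lower, against 7.47% of all probe sets. This contrast shares the ethanol array with the comparison of ethanol and control and is no separate evidence. Against control the same 4 genes gave gene means between -0.14 and 0.09 and none passed.

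The 2 array sets also separated some member probe sets. Between E2-BSA 1 and E2-BSA 2, 12 of the 77 (15.6%), from 10 genes, lay 1 or more apart on the log2 scale, against 5.81% of all probe sets, and 11 of the 12 were higher in the smaller set. ANLN 1552619_a_at stood 3.23 higher there, CDK1 231534_at 3.03 higher and MAD2L1 1554768_a_at 2.81 higher, while AURKB 209464_at stood 1.09 lower. Probe sets of 1 gene did not move together: CDK1 203213_at stood 0.44 higher in the smaller set, and for BIRC5, 1555826_at read 0.99 and -0.12 in the smaller and the larger set but 202095_s_at read -0.60 and 0.12. The 12 probe sets had a median of -0.27 for ethanol against control 2, and the other 65 a median of -0.53. Over the 77 probe sets the shift between sets and that difference had a Spearman rho of 0.273 and a Pearson r of 0.346, as a description across probe sets that share arrays.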

How the data were processed

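Per the labels' protocols, T47D RNA was labelled and hybridized to 11 Affymetrix HG-U133 Plus 2 arrays by the Affymetrix protocol. The deposited table holds log2 values, 1 per probe set and array, already normalized across arrays and centred per probe set by the authors: every array median lay within 0.0105 of 0, and in 57.0% of probe sets a positive and a negative value mirrored each other (tolerance 1e-05). The summarisation and normalization methods and the log base are not given in the sources used here, and base 2 was read from the size of the values. No level, detection call or signal over background is kept, so weak probe sets stay in, and the number of arrays limits the precision.

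After leaving out 62 control probe sets of 54675, 54613 were tested, of which 41091 had 1 symbol in the platform annotation, 1801 several and 11721 none. Array sets came from average-linkage clustering of the array's control probe sets. A model of 9 group means and array set was fitted with limma 3.58.1 (lmFit, eBayes) in R 4.3.3, and p-values were adjusted over all probe sets by Benjamini-Hochberg, with calls at an adjusted p under 0.05. E2-BSA over 3 backgrounds was an additive fit to 8 arrays. Errors are standard errors of these fits and intervals are 95%. Differences between single arrays carry no test. Control and E2-BSA have a replicate 1 and a replicate 2, and in both the 2 arrays lie in different array sets: the differences between the replicates correlated at 0.857 over all probe sets, and the array set term contains this pairing. With 1 residual degree of freedom, the fit can make false calls when the spread it borrows is misjudged.

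The 40 members and the lists were chosen with earlier results of these data known. Members were named where a probe set passed, up to 12 per direction, filled up to 5 by gene mean, with 15 always allowed. From other lists up to 4 genes past the test were named. Alternatives were no array set, quantile normalization, robust eBayes, gene means, 1 probe set per gene, the larger set alone, leaving out replicates, and, added after seeing the data, a reduced model, the smaller set alone, estradiol against ethanol and ethanol against each other array. Promoters were searched in RefSeq windows with plain letter matches.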

Additional observations from a re-analysis of the deposited data

How the results depend on the processing

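Of the alternatives to the results named above, 292 kept their side of the threshold or stayed within a residual spread (0.072 for a member median). For a member median this is the residual SD of the array medians after fitting 9 group means and array set. It has 1 residual degree of freedom, rests on the control and E2-BSA arrays alone, and leaves out the shift between array sets. It is therefore a rough yardstick and no measure of the full spread between replicates. Another 42 lost calls, 1 gained calls and 22 medians or differences moved by more than that spread. Settings without a test could not lose a call, and several of them gave identical values. Comparisons that had no call and stayed without one were counted as kept. The tally is therefore no measure of how robust the results are. No called difference changed sign, but 10 member medians near 0, from 5 comparisons, did. Of these, 4 moved by more than the spread and are given below. The other 6 were 0.0090 for estradiol without control replicate 1, -0.0060 for BSA without control replicate 2, 0.0080 and 0.0015 for ICI with quantile normalization and gene means, and, for E2-BSA with G15 present, 0.0073 with gene means and 0.011 with the probe set of largest SD. The count of members called lower in ethanol (11) became 0 with no replicate block, 1 with quantile normalization, 7 with gene means and 22 with the reduced model, which tests with more residual degrees of freedom. Its median became -0.63, -0.68 and -0.58 in the first 3 of these and -0.60 with the probe set of largest SD. ASPM under BSA lost its call with no replicate block, quantile normalization, gene means and the reduced model (0 members called), and the BSA median became -0.13 with no replicate block and 0.16 with the reduced model, whose baseline includes the low ethanol array. With no replicate block the member medians were 0.067 for estradiol, -0.17 for ICI, -0.17 for G15 and -0.042 for E2-BSA against BSA. That setting also gave 0.20 for estradiol against E2-BSA and 0.69 for estradiol against ethanol. The reduced model gave 0.11 for ICI and 0.028 for G15. For BSA, ICI and G15, as for ethanol, its baseline is not control alone. Its values therefore belong to a different contrast, though the tally counts them as changes of the comparison with control. The members called in estradiol against ethanol (4) became 0 with no replicate block, quantile normalization and gene means. Its median became 0.66 with quantile normalization and 0.64 with the probe set of largest SD, which also gave 0.21 for the change of the E2-BSA response by G15. Without control replicate 2 the ethanol difference was -1.84 for ASPM 232238_at, -1.28 for KIF14 236641_at, -1.56 for TOP2A 237469_at and -0.88 for KIF23 244427_at, and the BSA difference -1.90 for ASPM 232238_at. Leaving out a control or E2-BSA array leaves no residual degree of freedom in the 9-group fit, so those are values with no test. The filter on probe sets of low mean was not run, because the values hold no level. Tests of 1 array per group can miss small differences. For E2-BSA against control, with 2 arrays each, the member median was -0.12 and no member passed. The residual SD of 0.072 comes from these same arrays with 1 degree of freedom, so it cannot serve as a test of that median. The causes of the changes between settings were not tested.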
